A study of Mus musculus with 12 samples.

Results

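Receptors for the constant part of antibodies, receptors of the TREM family and the small adaptor proteins that both kinds signal through are best known from macrophages, granulocytes and NK cells. Here their RNA was followed in 12 mouse pre-B cell lines. Of these, 6 carried the empty vector (EV) and 6 BCR-ABL1, a fusion kinase that drives Philadelphia chromosome-positive acute lymphoblastic leukemia. The genes are Trem1, Trem2, Fcgr1, Fcgr2b, Fcgr3, Fcgr4, Fcer1g, Fcer2a, Tyrobp and Hcst, 10 of the 51826 genes in the count table, found by their Ensembl identifiers. They were chosen by name with the difference between BCR-ABL1 and EV lines in view. For that difference their values are therefore a description: calls of the fit over all genes are given as counts, without a p-value for any of the 10. Their p-values are given only for differences between the lines of the 2 mice, which the choice did not use.

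All lines came from bone marrow of C57BL/6 mice. The cells of each of 2 mice were grown with interleukin 7 (IL7) and transduced with the retroviral vector pMIG, which carries GFP, to give 3 EV lines and 3 BCR-ABL1 lines per mouse. IL7 was later withdrawn from the BCR-ABL1 lines only until they grew without it, whereas the EV lines stayed in IL7 and were sorted for GFP. Effects of BCR-ABL1, of IL7 withdrawal and of the sort cannot be told apart in these lines. Lines are named here by mouse and letter, so that EV 2A is an EV line of mouse 2, and each mouse is 1 animal.

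Activating Fc gamma receptors such as FcγRI (Fcgr1), FcγRIII (Fcgr3) and FcγRIV (Fcgr4) bind IgG and lack a signalling motif of their own. They depend on the Fc receptor gamma chain (Fcer1g), an adaptor with an ITAM, the tyrosine motif that recruits the kinase Syk. FcγRIIB (Fcgr2b) carries an inhibitory motif instead, restrains signalling of the B cell receptor and is the Fc gamma receptor of the B lineage. TREM1, which amplifies inflammatory responses of neutrophils and monocytes, and TREM2, a lipid-sensing receptor of macrophages and microglia, signal through the ITAM adaptor DAP12 (Tyrobp). DAP10 (Hcst) is a related adaptor with a YxxM motif that recruits PI3 kinase, and CD23 (Fcer2a) is the low-affinity IgE receptor of mature B cells.

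Total counts per line lay between 34791011 and 66011225. Values are given as CPM, counts divided by the TMM-scaled library size in units of 1e6 counts, and 3 counts in a line, between 0.0433 and 0.0920 CPM, were taken as the floor. The 16 B lineage markers summed to 5935 to 9327 CPM in EV lines against 5552 to 6473 CPM in BCR-ABL1 lines. Cd79a, Pax5, Ebf1 and Vpreb1 were all above 186 CPM in every line. All 16 reached 1 CPM in at least 1 EV line, and 15 did so in at least 1 BCR-ABL1 line. By the test described below, 1 of the 16 was called higher in BCR-ABL1 lines and 3 were called lower. EV 2A stood apart by low counts spread over silent genes: it had the lowest total and 13242 genes with 1 to 3 counts, EV 2B had 9923, and the other lines had between 3692 and 8357. EV lines of mouse 2 also varied most, with a biological coefficient of variation of 0.388, against 0.0849 to 0.103 in the other sets of 3 lines.

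**Figure D1:**
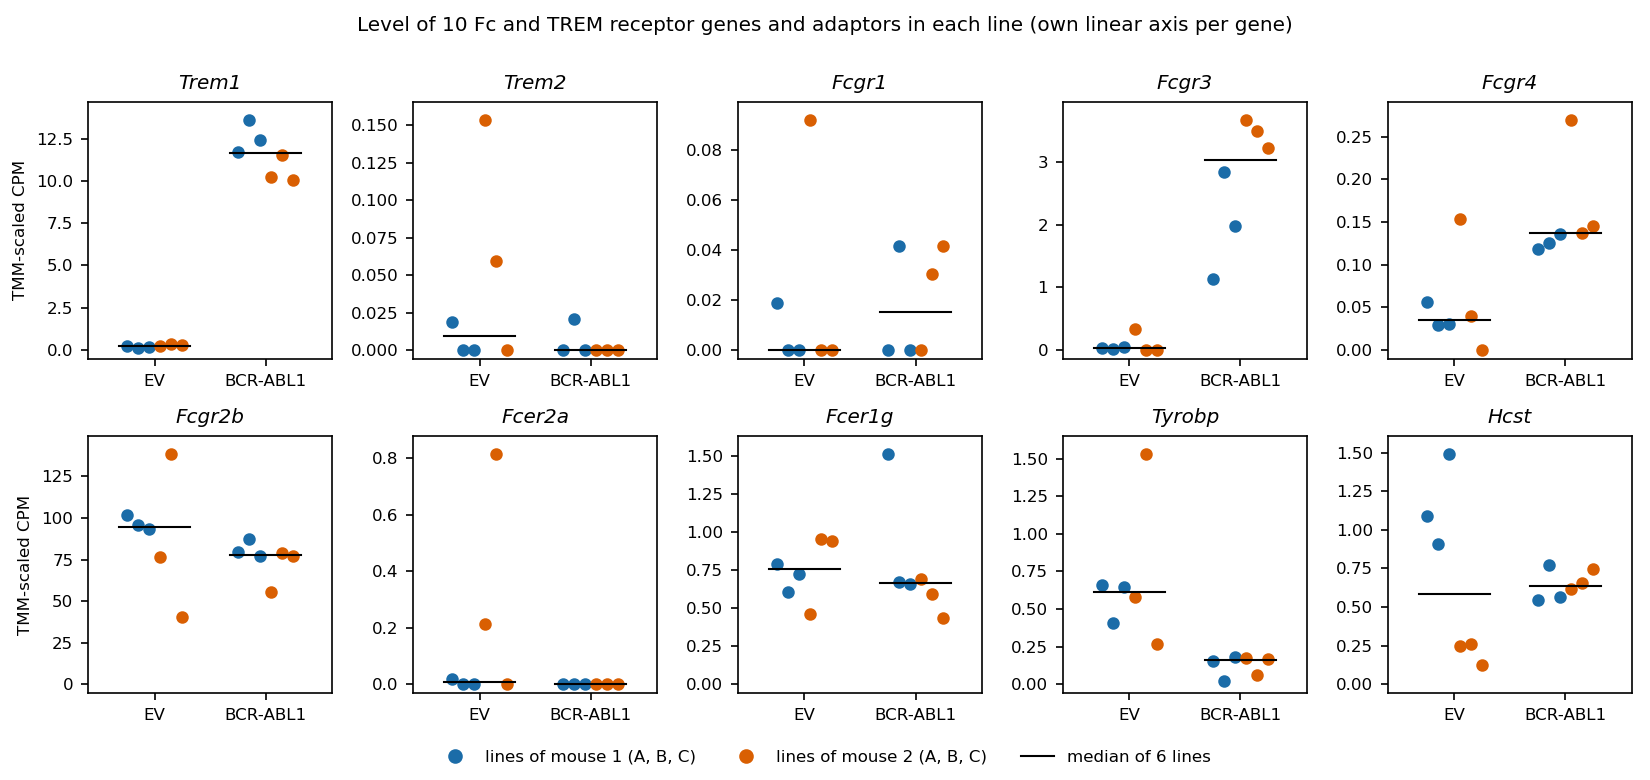
Level of each gene (TMM-scaled CPM, own linear axis) in the 6 EV and 6 BCR-ABL1 lines, with points coloured by mouse and a line at the median of each condition. Trem1 and Fcgr3 sit higher and Tyrobp lower in every BCR-ABL1 line, whereas Hcst is split by mouse among the EV lines.

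Of the 10 genes, 6 had enough counts to be tested by edgeR (Trem1, Fcgr2b, Fcgr3, Fcer1g, Tyrobp and Hcst). Calls were made for a change beyond 1.5-fold at a Benjamini-Hochberg adjusted p (FDR) under 0.05. In BCR-ABL1 lines 2 of the 6, Trem1 and Fcgr3, were called higher, where 5.99% of all 15038 tested genes were, and 1, Tyrobp, was called lower, where 6.49% of all tested genes were. Since the genes were picked with this contrast in view, nothing is read from these shares. Fcgr2b, Fcer1g and Hcst were not called. Trem2, Fcgr1, Fcgr4 and Fcer2a had too few counts for a test. A gene that is nearly silent in 1 condition reaches the test only through the other. Trem1 and Fcgr3 reached it through the BCR-ABL1 lines and Tyrobp through the EV lines.

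To show the sequence that lies before the start of the genes with the clearest patterns, the 250 bases upstream of the RefSeq start (GRCm38.p6) are given for Trem1 and Fcgr3, both high in BCR-ABL1 lines, for Fcgr1, which was close to silent in all lines, and for Hcst, which differed between the mice. Sequences run 5′ to 3′ on the strand of the gene. Capitals mark GAGGAA on either strand (TTCCTC on the other), the core of sites of the myeloid and B cell factor PU.1, and TTCNNNGAA, the form of STAT sites. These letters were picked after the sequences had been seen.
Trem1, chr17:48232489-48232738, + strand: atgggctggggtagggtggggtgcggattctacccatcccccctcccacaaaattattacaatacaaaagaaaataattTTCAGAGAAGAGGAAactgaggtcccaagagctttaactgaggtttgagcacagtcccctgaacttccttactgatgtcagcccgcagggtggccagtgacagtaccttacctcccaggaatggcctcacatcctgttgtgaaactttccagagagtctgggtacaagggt
Fcgr3, chr1:171059404-171059653, - strand: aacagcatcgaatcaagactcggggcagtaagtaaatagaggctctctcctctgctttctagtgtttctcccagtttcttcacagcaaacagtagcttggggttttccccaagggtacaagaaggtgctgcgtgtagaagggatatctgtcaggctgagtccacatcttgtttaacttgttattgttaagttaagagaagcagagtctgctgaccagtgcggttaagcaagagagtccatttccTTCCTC
Fcgr1, chr3:96293970-96294219, - strand: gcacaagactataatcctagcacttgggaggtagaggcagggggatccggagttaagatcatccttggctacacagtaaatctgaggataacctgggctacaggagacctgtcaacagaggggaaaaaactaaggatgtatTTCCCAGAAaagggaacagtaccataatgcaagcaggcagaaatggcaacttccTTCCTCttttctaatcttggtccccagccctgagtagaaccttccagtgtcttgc
Hcst, chr7:30419855-30420104, - strand: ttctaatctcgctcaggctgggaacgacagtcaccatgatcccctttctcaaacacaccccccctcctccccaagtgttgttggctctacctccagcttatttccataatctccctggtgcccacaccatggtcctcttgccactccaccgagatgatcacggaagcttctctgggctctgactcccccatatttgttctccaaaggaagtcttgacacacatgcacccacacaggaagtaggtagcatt

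The promoter table held 12 upstream windows for 9 of the 10 genes, without an entry for Tyrobp. GAGGAA was found in 6 of these 12 windows (Trem1, Trem2, Fcgr1, Fcgr4 and 2 of Fcgr3) and in 23.3% of all 32851 upstream windows of the same length. The 2 windows of Fcgr3, of which 1 is printed, overlap and hold the same GAGGAA site. Counted by gene, 5 of the 9 had it. TTCNNNGAA was found in 2 of the 12, those of Trem1 and Fcgr1, and in 7.02% of all windows. In the Trem1 window both stretches lie next to each other without overlap. Fcgr1 has both motifs too, at a distance from each other, and had between 0 and 3 counts per line, which is at or below the floor. Upstream of Hcst neither was found. The printed window of Fcgr3 belongs to a RefSeq start 5532 bp inside the gene as GENCODE draws it. In this window 27 bases lie in an exon of another transcript.

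Trem1 (chr17:48232768-48246924, + strand) showed the clearest difference. The 6 EV lines had between 8 and 18 counts of Trem1 each, or 0.116 to 0.358 CPM with a median of 0.236. The 6 BCR-ABL1 lines had between 485 and 760 counts each, or 10.1 to 13.6 CPM with a median of 11.6. No BCR-ABL1 line came near any EV line, and the spread within the BCR-ABL1 lines was small (SD 1.34 CPM, n = 6). The log2 fold change was 5.61 ± 0.23 (SE), a 49.0-fold higher level. In bulk RNA like this, a change in how many cells carry a transcript and a change in RNA per cell cannot be told apart.

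Markers of myeloid cells were read beside Trem1 and Fcgr3. The 15 macrophage and monocyte markers summed to 4.55 to 7.48 CPM in EV lines against 9.82 to 13.3 CPM in BCR-ABL1 lines. Cd68 and Mrc1 were the only ones of them to reach 1 CPM in any line, and the other 13 together gave 0.301 to 3.43 CPM in EV lines against 0.318 to 0.897 CPM in BCR-ABL1 lines. Among the defining markers, the highest level in any BCR-ABL1 line was 0.0848 CPM for Csf1r, 0.0304 for Adgre1, 0.385 for Lyz2, 0.0152 for Cd14 and 0.167 for Itgam. In EV lines the highest levels were 0.184, 0.583, 0.173, 0.0199 and 0.258 CPM in the same order. None of these markers was at 0 in all 12 lines. Mrc1, the mannose receptor, had 0.179 to 0.559 CPM in EV lines against 4.53 to 6.55 CPM in BCR-ABL1 lines. The 15 granulocyte markers summed to 0.169 to 1.93 CPM in EV lines against 0.270 to 0.940 CPM in BCR-ABL1 lines, with Mpo, Elane, S100a8, S100a9 and Ly6g at no more than 0.583 CPM in any line. The 9 dendritic cell markers summed to 1.09 to 3.22 CPM in EV lines against 4.84 to 7.25 CPM in BCR-ABL1 lines. Flt3 was the only one of them to reach 1 CPM in any line. It had 0.159 to 0.705 CPM in EV lines against 4.61 to 7.00 CPM in BCR-ABL1 lines. Of the 2 that were tested, Flt3 was called higher and Zbtb46 lower (0.207 to 0.889 CPM against 0.0627 to 0.135 CPM). The highest levels of Siglech, Itgax and Clec9a were 0.505, 0.552 and 0.0795 CPM in EV lines. In BCR-ABL1 lines they were 0.0304, 0.104 and 0.0209 CPM. The 11 mast cell and basophil markers summed to 0.0144 to 1.17 CPM in EV lines against 0 to 0.187 CPM in BCR-ABL1 lines. The part of such cells in the Trem1 and Fcgr3 values was not tested.

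Trem2 (chr17:48346401-48354147, + strand), which lies 99476 bp downstream of Trem1, stayed at the edge of detection. It had 1, 0, 0, 5, 3 and 0 counts in EV 1A to 2C and at most 1 count in a BCR-ABL1 line. The only EV line above the floor was EV 2A, the library with low counts over many silent genes.

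Among the activating Fc gamma receptors, Fcgr3 (chr1:171051174-171064935, - strand) differed most. It had 2, 1, 3, 11, 0 and 0 counts in EV 1A to 2C, against 67, 136, 87, 191, 230 and 156 counts in BCR-ABL1 1A to 2C. In CPM this was 0 to 0.337 with a median of 0.0260 in EV lines and 1.14 to 3.68 with a median of 3.04 in BCR-ABL1 lines. The conditions did not overlap. The log2 fold change was 5.47 ± 0.57 (SE), or 44.4-fold, and rested on 17 counts over all EV lines, of which 11 were in EV 2A. Without EV 2A it was 6.91.

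Fcgr3 and Fcgr2b arose by duplication and share sequence, so that reads could in part be assigned to the wrong gene. Of all 100-base windows of Fcgr3 transcripts 2.54% occur also in Fcgr2b transcripts, of 50-base windows 9.58%. No window of the read length that the study reported, before trimming, was shared between them. Fcgr3 had between 0 and 0.440 counts per 100 counts of Fcgr2b in EV lines and between 1.42 and 6.65 in BCR-ABL1 lines. The part of misassigned reads in the Fcgr3 values was not tested.

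Fcgr4 (chr1:171018920-171029761, + strand) showed 3, 2, 2, 5, 2 and 0 counts in EV 1A to 2C and 7, 6, 6, 14, 9 and 7 in BCR-ABL1 1A to 2C. Counts did not overlap between the conditions, but at 0 to 0.153 CPM in EV lines against 0.119 to 0.270 CPM in BCR-ABL1 lines the scaled levels did, through EV 2A. Fcgr1 (chr3:96282909-96293969, - strand), the high-affinity receptor, had 4 counts over all EV lines and 6 over all BCR-ABL1 lines. Its transcript was not detectable above the floor at this depth in any line.

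Fcgr2b (chr1:170958617-170976547, - strand), the inhibitory receptor, was by far the most abundant of the genes. It had 40.3 to 138 CPM with a median of 94.4 in EV lines and 55.3 to 87.3 CPM with a median of 78.0 in BCR-ABL1 lines. The BCR-ABL1 lines lay within the range of the EV lines, of which EV 2B was highest and EV 2C lowest. The log2 fold change was -0.26 ± 0.26 (SE). The antisense gene Gm38204 overlaps 155 exonic bases of Fcgr2b, and with at most 8 counts in a line it is far below it.

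Fcer2a (chr8:3681737-3694175, - strand) had 1, 0, 0, 7, 41 and 0 counts in EV 1A to 2C and 0 counts in all 6 BCR-ABL1 lines. Its counts thus came almost wholly from EV 2A and EV 2B, the same libraries that had the most genes with 1 to 3 counts. The 41 counts in EV 2B, or 0.814 CPM, were well above the floor. The cause of this pattern was not tested. Ms4a1 (CD20), another gene of mature B cells, had 0.332 to 10.7 CPM in EV lines and at most 0.170 CPM in BCR-ABL1 lines.

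Of the adaptors, Tyrobp was called lower, and Fcer1g and Hcst were not called. Tyrobp (DAP12, chr7:30413760-30417585, + strand), through which TREM1 signals, had 35, 28, 42, 19, 77 and 15 counts in EV 1A to 2C and 9, 1, 8, 9, 4 and 8 counts in BCR-ABL1 1A to 2C. This corresponds to 0.270 to 1.53 CPM with a median of 0.614 in EV lines and 0.0209 to 0.182 CPM with a median of 0.159 in BCR-ABL1 lines, again without overlap. The log2 fold change was -2.42 ± 0.45 (SE), a 5.37-fold lower level. With the 6 lines of mouse 2 alone the value was -2.58 but no call was made, whereas with those of mouse 1 alone it was -2.22 and called. Tyrobp thus reached at most 9 counts in a line where Trem1 had at least 485.

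Fcer1g (chr1:171229572-171234365, - strand), the partner of the activating Fc receptors, differed little. It had 0.460 to 0.953 CPM with a median of 0.756 in EV lines and 0.436 to 1.51 CPM with a median of 0.664 in BCR-ABL1 lines, and the total over the 6 lines was 246 counts in both conditions. The log2 fold change was 0.03 ± 0.28 (SE). BCR-ABL1 1A, with 89 counts, was well above the other BCR-ABL1 lines, which had 21 to 39.

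Hcst (DAP10, chr7:30417712-30419854, - strand) lies 126 bp from Tyrobp, and the genes run towards each other. It had 58, 63 and 97 counts in the EV lines of mouse 1, but 8, 13 and 7 counts in those of mouse 2, and between 25 and 43 counts in all BCR-ABL1 lines. The log2 fold change over all 12 lines, -0.10 ± 0.54 (SE), averaged opposite differences in the lines of the 2 mice. Whether the counting used strand is not given in the sources used here, and the exons of Hcst and Tyrobp do not overlap.

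**Figure D2:**
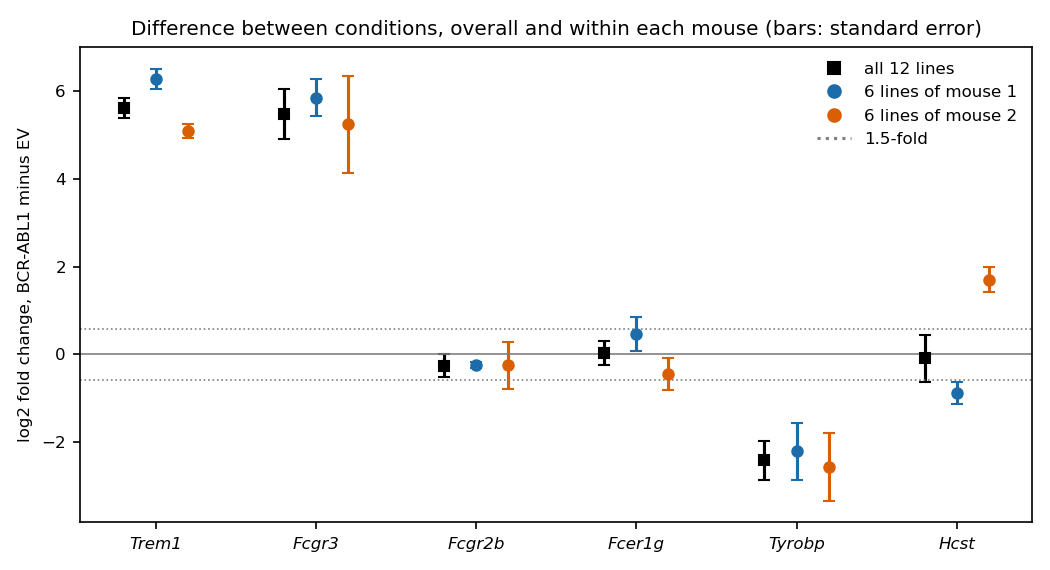
Log2 fold change (BCR-ABL1 minus EV) of the 6 tested genes over all 12 lines and within the 6 lines of each mouse, with standard errors and dotted lines at 1.5-fold. Trem1, Fcgr3 and Tyrobp keep their direction in both mice, whereas Hcst is at -0.88 in mouse 1 and 1.70 in mouse 2.

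Levels of different genes were set against each other as CPM per kb of exonic length. In EV lines Fcgr2b led with a median of 16.3 CPM per kb, followed by Tyrobp with 0.920, Fcer1g with 0.865 and Hcst with 0.809. The ranges of these 3 adaptors overlapped in EV lines, so that their order is not set. Trem1 (0.0786), Fcgr4 (0.0280) and Fcgr3 (0.0150) followed far below them. In BCR-ABL1 lines Fcgr2b still led with 13.5 CPM per kb, but Trem1 with 3.89 and Fcgr3 with 1.75 came next. Fcgr3 (0.654 to 2.12), Hcst (median 0.880, 0.751 to 1.07) and Fcer1g (median 0.760, 0.499 to 1.73) overlapped in range, so that the order of these 3 is not set, and Tyrobp with 0.239 and Fcgr4 with 0.109 followed.

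The ratio of receptors to adaptors differed between the conditions. The summed level of Trem1 and Trem2 per kb was 0.0530 to 0.267 times that of Tyrobp in EV lines and 13.2 to 145 times in BCR-ABL1 lines. The upper end was BCR-ABL1 1B, where Tyrobp had 1 count, and the median of the BCR-ABL1 lines was 16.2. For the activating Fc gamma receptors Fcgr1, Fcgr3 and Fcgr4 over Fcer1g, the ratio was 0 to 0.669 in EV lines and 0.434 to 4.004 in BCR-ABL1 lines. Here the ranges overlapped, since EV 2A (0.669) exceeded BCR-ABL1 1A (0.434), while the medians were 0.0534 and 2.62. Of the summed level of all 10 genes per kb, Fcgr2b made up 79.8% to 86.3% in EV lines and 55.5% to 65.2% in BCR-ABL1 lines, and Trem1 0.201% to 1.24% and 16.4% to 20.2%. All these ratios use the contrast by which the genes were selected, and they compare RNA, not protein.

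**Figure D3:**
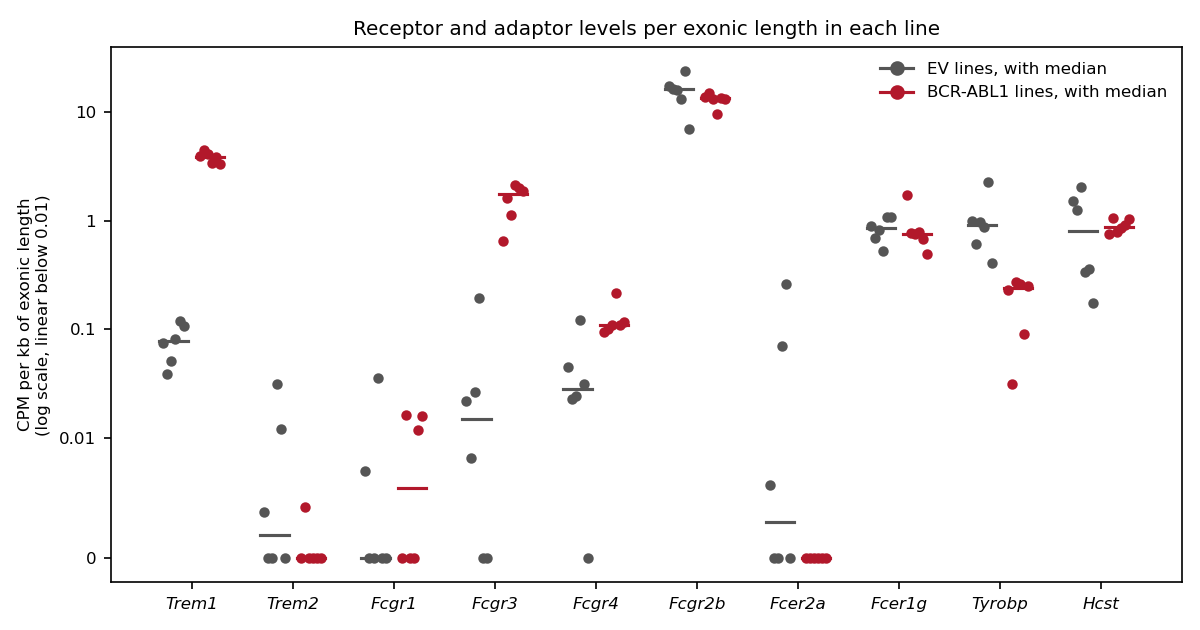
CPM per kb of exonic length of the 10 genes in each EV and BCR-ABL1 line, on a log axis that is linear below 0.01, with medians as bars. Fcgr2b leads in both conditions, and Trem1 and Fcgr3 lie above the 3 adaptors in the median of the BCR-ABL1 lines.

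Differences between the lines of the 2 mice were tested with edgeR's glmQLFTest, with FDR over all 15038 genes. As each mouse is 1 animal, these tests cover the spread between lines only. Whether the BCR-ABL1 effect differed between the mice was tested as an interaction, which was called for 2 of the 6 tested genes, Hcst and Trem1, and for 16.9% of all tested genes. For Hcst the difference of the log2 fold changes (mouse 2 minus mouse 1) was 2.59 ± 0.38 (SE; FDR = 0.00166). In mouse 1 Hcst had 0.910 to 1.49 CPM in EV lines against 0.543 to 0.773 CPM in BCR-ABL1 lines, and in mouse 2 it had 0.126 to 0.258 CPM against 0.616 to 0.747 CPM. Neither difference was called in the lines of that mouse alone. In both mice the 3 EV and 3 BCR-ABL1 lines did not overlap, with EV higher in mouse 1 and lower in mouse 2. The 9 NK cell markers summed to 3.35 to 3.55 CPM in EV lines of mouse 1 and to 0.866 to 2.48 CPM among the EV lines from mouse 2. Among BCR-ABL1 lines the sum was 1.25 to 3.95 CPM for mouse 1 and 0.436 to 0.745 CPM for mouse 2. Klrb1c and Klrd1 were the only ones of the 9 markers to reach 1 CPM in any line. Ncr1, Nkg7 and Gzma had at most 2 counts in a line, and Prf1 had at most 11. Klrk1 (NKG2D), the classical partner of DAP10, had at most 7 counts in a line. The part of such cells in the Hcst values was not tested.

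Between the mice, EV lines differed for the same 2 genes, where 24.8% of all tested genes were called. Hcst was lower in mouse 2 (log2 difference -2.49 ± 0.34 SE, FDR = 0.000173) and Trem1 slightly higher (0.94 ± 0.27 SE, FDR = 0.0191). For Trem1 this was a mean of 0.165 CPM against 0.309 CPM, from 8 to 12 and 8 to 18 counts per line. The Trem1 interaction was -1.19 ± 0.28 (SE; FDR = 0.0218), with log2 fold changes of 6.28 in mouse 1 and 5.09 in mouse 2. Trem1 lost the interaction call without EV 1B (-0.98), EV 1C (-1.15), BCR-ABL1 1B (-1.13) or BCR-ABL1 2C (-1.15), and the call between EV lines without EV 1B (0.73), EV 1C (0.90) or EV 2B (0.84). Hcst kept both calls whichever line was left out. Fcgr2b gained a call between EV lines only without EV 2B (-0.73, against -0.19 with it).

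Among the BCR-ABL1 lines, none of the 6 tested genes was called between the mice by glmQLFTest, DESeq2 or the likelihood ratio test, where 5.97% of all tested genes were called by glmQLFTest, and 0 of the 6 had an unadjusted p under 0.05. Fcgr3 had 1.14 to 2.84 CPM in mouse 1 and 3.24 to 3.68 CPM in mouse 2, a log2 difference of 0.81 ± 0.38 (SE; FDR = 0.615). Hcst, so different among EV lines, had means of 0.628 and 0.672 CPM (log2 difference 0.10 ± 0.17 SE, FDR = 0.940).

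Other receptors of these kinds, the signalling genes below them and their ligands were read from 4 lists, with the same test of BCR-ABL1 against EV over all genes. The lists were written with earlier results of this comparison known, and most genes are named by the size of their change. Their FDRs are therefore given as a description. Of 13 further Fc receptor genes 6 were tested, of which 0 were called higher and 3 lower. Fcmr, the receptor for IgM, had 5.01 to 49.5 CPM in EV lines against 0.0385 to 0.220 CPM in BCR-ABL1 lines (log2 fold change -7.19 ± 0.59 SE, FDR = 0.000109). Pigr, which transports polymeric antibodies, fell by 3.47 ± 0.37 (SE; FDR = 0.000249) on the log2 scale. Its levels were low, at 0.577 to 1.38 CPM in EV lines against 0 to 0.125 CPM in BCR-ABL1 lines. Fcmr, with 2 to 13 counts per BCR-ABL1 line, and Pigr, with 0 to 7, thus reached the test through the EV lines. Fcrla, an Fc receptor-like protein kept inside B cells, fell by 3.05 ± 0.65 (SE; FDR = 0.00424). EV lines varied widely, at 29.8 to 392 CPM, and the lowest lay close to the BCR-ABL1 lines, which had 24.6 to 28.4 CPM. The median log2 fold change of the 6 was -1.76, against -0.02 for all tested genes.

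Of 35 TREM relatives and other receptors, not all of which use such adaptors, 3 were tested. Of these 3, 0 were called by edgeR's glmTreat, DESeq2 or the likelihood ratio fit, although 2 (Treml2 and Cd200r3) had an unadjusted p under 0.05. Treml2, a TREM-like receptor found on B cells, had 83.6 to 141 CPM in EV lines against 160 to 212 CPM in BCR-ABL1 lines, without overlap (log2 fold change 0.85 ± 0.15 SE, FDR = 0.0781). The other 32 had too few counts, among them Trem3, a further receptor of the TREM family, with 0 to 2 counts in EV and 2 to 19 in BCR-ABL1 lines. Treml2, Cd200r3 and Trem3 are named here after their values were seen. Leaving out any of the 12 lines let more of these genes into the test, and 1 to 3 were then called.

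Of 43 genes that act below ITAM and YxxM adaptors, 41 were tested, and 3 were called higher and 7 lower, with a median log2 fold change of -0.14. The kinase Syk, which binds ITAMs, was not called (233 to 896 CPM in EV lines against 390 to 473 CPM in BCR-ABL1 lines). Its relative Zap70 fell by 2.46 ± 0.60 (SE; FDR = 0.0147), and the Src family kinase Fgr by 2.82 ± 0.42 (SE; FDR = 0.00210). For Fgr this was from 0.234 to 1.45 CPM in EV lines to 0.0418 to 0.182 CPM in BCR-ABL1 lines. With 2 to 12 counts per BCR-ABL1 line, Fgr reached the test through the EV lines. Rasgrp3, an activator of Ras, fell by 2.94 ± 0.44 (SE; FDR = 0.00129), and Ubash3a, a suppressor of antigen receptor signalling, by 1.82 ± 0.48 (SE; FDR = 0.0287). The call of Ubash3a was lost without EV 1A (-1.71), EV 1B (-1.79), EV 1C (-1.79) or BCR-ABL1 2A (-1.67). Pik3cd, the delta catalytic subunit of PI3 kinase, rose by 1.85 ± 0.08 (SE; FDR = 8.04e-07), from 251 to 341 CPM in EV lines to 975 to 1137 CPM in BCR-ABL1 lines. Phospholipase Plcg1 rose by 1.73 ± 0.28 (SE; FDR = 0.00319) and the docking protein Dok2 by 1.52 ± 0.22 (SE; FDR = 0.00441). In the lines of mouse 2 alone Plcg1 (1.02), Dok2 (1.26) and Fgr (-1.73) were not called. Pik3cd, Zap70, Rasgrp3 and Ubash3a were called there. Without EV lines 2A and 2C, an alternative chosen after seeing the data, 17 rather than 10 of these genes were called.

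Of 14 ligands and sheddases 10 were tested, and 3 were called higher and 0 lower, with a median log2 fold change of 0.68. Raet1e, a ligand of the DAP10-coupled receptor NKG2D, rose by 3.91 ± 0.79 (SE; FDR = 0.0327), but from 0 to 0.429 CPM to no more than 0.228 to 2.27 CPM. With 0 to 14 counts per EV line, Raet1e reached the test through the BCR-ABL1 lines. Its call was lost with mouse as a block (3.64, FDR = 0.0503), with mouse and letter as blocks (4.50, FDR = 0.0544), by DESeq2 (3.69, FDR = 0.0513), and without any 1 of EV 1A, 1B, 1C, 2B or BCR-ABL1 1A, 1B, 1C (3.41 to 3.86). Without EV 2A the value was 6.24. Sema6d rose by 2.02 ± 0.49 (SE; FDR = 0.0175) and its receptor Plxna1, a partner of TREM2 and DAP12, by 1.54 ± 0.31 (SE; FDR = 0.0183). Adam10 and Adam17, proteases that shed receptors such as CD23, were not called, with log2 fold changes of -0.04 and 0.22. The lists were written with earlier results of this comparison known, and 5.99% of all tested genes were called higher and 6.49% lower.

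**Figure D4:**
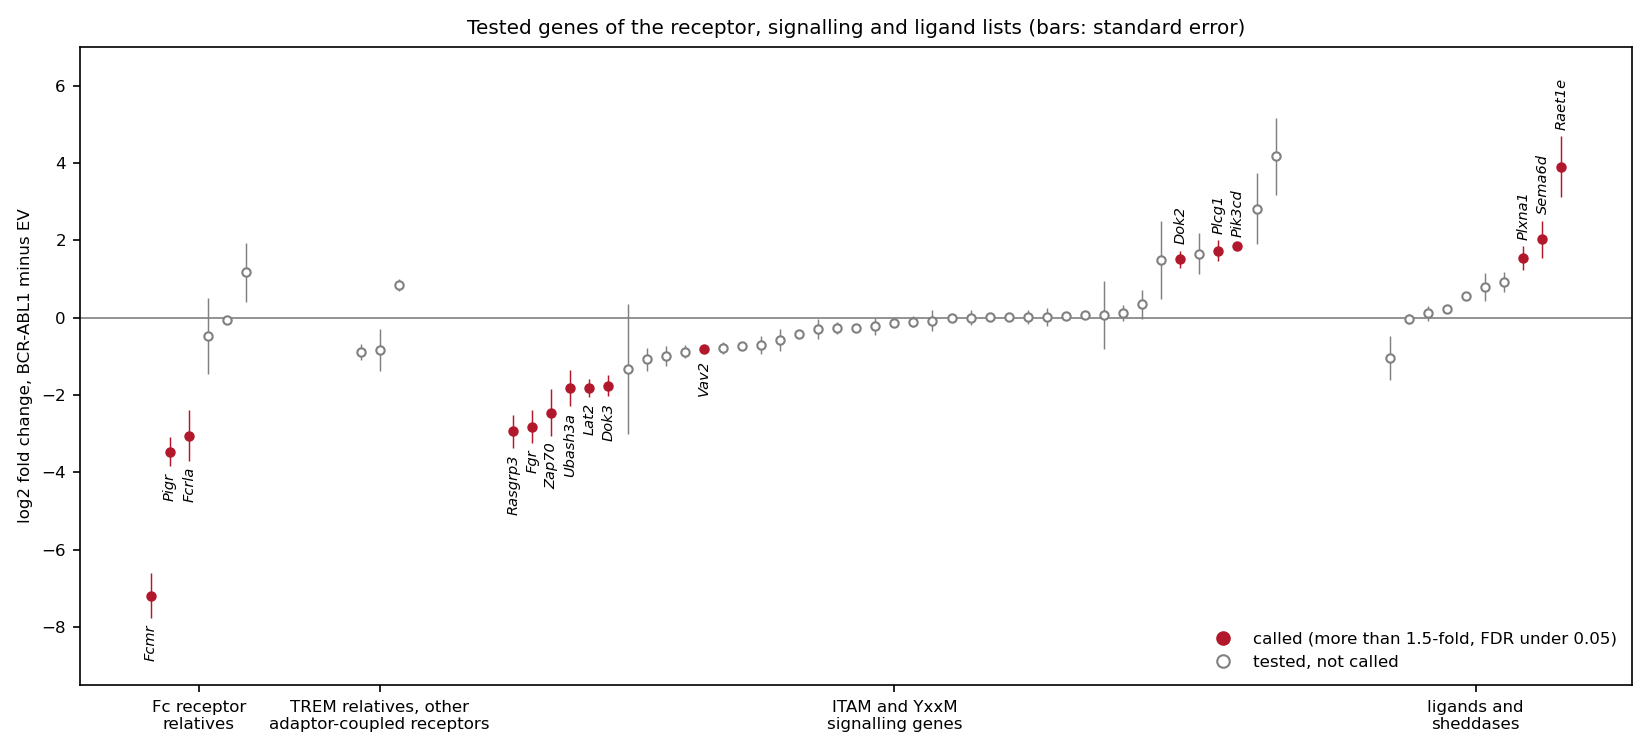
Log2 fold change (BCR-ABL1 minus EV) with standard error of each tested gene of the 4 lists, sorted within each list, with called genes filled and named. The Fc receptor relatives that were called lie below 0, the called ligands above it, and most signalling genes lie near 0.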

How the data were processed

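RNA of 12 lines (6 EV, 6 BCR-ABL1) was sequenced from stranded total RNA libraries. The authors deposited whole-number counts per gene, neither normalized nor pooled. The submitters' processing notes name FastQC 0.11.5, Trimmomatic 0.36, TopHat2 2.1.1, Bowtie2 2.3.2, featureCounts 1.5.3, R 3.6.1, edgeR 3.18.1 and GRCm38. The strand setting, the annotation release and the handling of reads that map to several genes are not given in the sources used here, and the last could move reads between Fcgr3 and Fcgr2b.

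Counts were analysed with edgeR 4.0.16 and DESeq2 1.42.0 in R 4.3.3 and plotted with matplotlib 3.10.9 in Python 3.11.15. Symbols, positions and exonic lengths are from GENCODE M21, promoter sequences from RefSeq (GRCm38.p6). Genes passing filterByExpr (minimum count 10) were scaled by TMM. The BCR-ABL1 and EV lines were compared by glmTreat against 1.5-fold on the quasi-likelihood fit without a block, and mouse contrasts by glmQLFTest on 4 means of mouse and condition, with Benjamini-Hochberg FDR under 0.05. Standard errors for BCR-ABL1 against EV and for the mouse contrasts come from the spread of log2 CPM (prior count 2) between lines. The floor of 3 counts covers counting error alone, because PCR copies cannot be told from separate molecules here.

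The members and gene lists were chosen with earlier results of these data known. All 10 members are named. From each other list up to 4 called genes with the largest rise and up to 4 with the largest fall are named, and from marker lists the first 5 genes, of which 1 is not reported here. Genes outside this rule are Mrc1, Cd68, Ms4a1, Syk, Klrd1, Klrk1, Adam10, Adam17, Treml2, Cd200r3, Trem3 and those in the part on alternatives.

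Deviations from condition means correlated at 0.0853 to 0.240 between EV lines and BCR-ABL1 lines from the same mouse, whose cells come from 1 animal, and at -0.203 to -0.0636 for different mice, so the mouse pairs the samples. After removal of mouse means, lines with the same letter correlated at -0.109 to 0.0856. Replicate pairs differed by a chi-square per gene of 10.1 to 477, and no library was a repeat of another. The fits were tested on simulated data. Alternatives were RLE size factors, 2 other gene filters, DESeq2, the likelihood ratio fit, tests against no change or, for the mouse contrasts, against 1.5-fold, replicate blocks, the lines of each mouse alone and leaving out each line.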

Additional observations from a re-analysis of the deposited data

Results flagged for a closer look

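In 4 cases a line lay far from the other 5 lines of its condition by Dixon's criterion, which chance meets in about 1 in 20 groups. Fcgr2b was low in BCR-ABL1 2A at 55.3 CPM, and the other BCR-ABL1 lines had 77.2 to 87.3 CPM. Fcgr3 was high in EV 2A at 0.337 CPM (11 counts), a library with low counts over many silent genes. Fcer1g was high in BCR-ABL1 1A at 1.51 CPM, and Tyrobp in EV 2B at 1.53 CPM. The BCR-ABL1 effect differed between the lines of the 2 mice, by edgeR's test of the interaction, for Trem1 (log2 difference -1.19, FDR = 0.0218) and for Hcst (2.59, FDR = 0.00166). For Trem1 the mice differed among EV lines with 8 to 18 counts each. For Hcst the sign of the effect was opposite in the 2 mice.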

How the results depend on the processing

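Trem1 and Fcgr3 were called higher under every alternative, from which no support is drawn, since the genes were chosen with this contrast in view. Tyrobp was called lower under all but 2: it was not tested when genes needed 1 CPM or more in 6 or more lines and not called in the lines of mouse 2 alone, so that the count of lower members was 0 in both. With mouse as replicate block 2 members were higher and 1 lower, as without it, and with mouse and letter as replicate block too. No replicate block changed a call of a member.

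The count of called Fc receptor relatives was 6 rather than 3 in the lines of mouse 1 alone, with Fcrlb (-3.25) also lower but Fcrl5 (3.22) and Fcrl6 (2.27) higher. In the lines of mouse 2 alone it was 3, with Fcrl1 higher (3.31) and Fcrla no longer called (-1.49). No TREM relative was called in the main comparison, but 5 were without a gene filter (Trem3, Pilra and Treml2 higher, Siglech and Cd300a lower), 2 in the test against no change, 3 in the lines of mouse 1 and 2 in those of mouse 2, 3 without EV lines 2A and 2C (chosen after seeing the data), and 1 to 3 when a line was left out. These genes, the Fcrl genes other than Fcrla, and Ulbp1 are named after their values were seen. For signalling genes the count was 21 in the test against no change, 21 and 6 in the lines of mouse 1 and mouse 2, and 17 without EV 2A and 2C, against 10. For ligands and sheddases it was 6 against no change, 5 in mouse 1 and 1 in mouse 2, against 3. The 1 gene in mouse 2 was Ulbp1 (1.72), while Raet1e (1.17), Sema6d (1.29) and Plxna1 (1.41) were not called there. It was 2 with either replicate block, by DESeq2 and with the CPM filter, each without Raet1e. Over all genes the test against no change called 3389 higher and 3897 lower, the lines of mouse 1 alone 2512 and 1877, and those of mouse 2 alone 614 and 408.

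Calls of the interaction fell from 2 to 1 without a gene filter, with the CPM filter and against a 1.5-fold change, and were 1 to 2 when a line was left out. Calls between EV lines fell from 2 to 1 with the CPM filter and against 1.5-fold, and were 1 to 2 when a line was left out. The gene filter removed Hcst from the test in the CPM case, and in the others the lost call was that of Trem1; without a gene filter Fcer2a was called between EV lines in its place. With letter as replicate block both counts were 2. Among the values per gene, Trem1 moved to 6.28 and 5.09 in the lines of each mouse alone, Hcst to 1.70 in mouse 2, and Fcgr3 to 6.91 without EV 2A. Trem1 and Fcgr3 in EV lines and Tyrobp in BCR-ABL1 lines had 0 to 18 counts each, which limits the precision of their ratios. The cause of these shifts was not tested, apart from genes entering or leaving the filter.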
